A study of Arabidopsis thaliana with 9 samples.

Results

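Among 32310 loci quantified in Arabidopsis thaliana seedlings, 121 kept a steady RNA level after 12 h at 4 °C while the make-up of their RNA shifted between annotated transcripts. The most abundant transcript became another one in 82 of them. The RNA level was measured in TPM (transcript abundance scaled to the same total in every library), and the share of a transcript is its TPM as a percent of the TPM of its locus. A locus was taken when its mean level was at least 10 TPM in each group, its mean at 12 h was 0.5 to 2 times that at 22 °C, and the mean share of 1 of its transcripts moved by at least 30 percentage points between 22 °C and 12 h without overlap between the 3 libraries of each. Of 10456 loci at the level minimum, 9294 were steady in this sense, 4688 of these had 2 or more annotated transcripts, and the 121 loci were 2.58% of those. The shares at 12 h and 22 °C chose the loci, so the differences between these groups are given below as a description and support nothing by themselves. In each locus, the transcript whose share grew most at 12 h is called the gaining transcript and the one whose share shrank most the losing transcript.

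Most plant genes with introns can give several mRNAs, through the choice of splice sites, through introns that stay in the mature RNA, and through alternative start and end sites. A retained intron often brings a stop codon into the reading frame, and such RNAs can be held in the nucleus, be degraded by nonsense-mediated decay, or encode a shortened protein. Plants are known to change the splicing of many RNAs in the cold, and this changes which RNA a locus makes without a need to change how much RNA it makes.

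RNA came from whole seedlings of wild-type Col-0, labelled as 10 days old, with the treatment given on day 12 according to the labels' protocol, and each library was a pool of seedlings. There were 3 libraries at 22 °C (0 h), 3 after 3 h at 4 °C and 3 after 12 h at 4 °C, with 15910839 to 24291683 estimated reads each. The cold began 4 h after dawn (ZT4), which puts the 3 h libraries at ZT7 and the 12 h libraries at ZT16. Light was dimmer in the cold. Effects of temperature, of light and of the hour of sampling cannot be told apart in any comparison below. Markers of shoot and root were both present in all libraries (RBCS1A at 12105 to 15822 TPM, the root gene PYK10 at 2826 to 4042 TPM), and those of seed and flower stayed at or below 1.02 TPM. In whole seedlings a change in which cells are present and a change within cells cannot be told apart.

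The loci were of moderate level, with a mean over the 9 libraries of 10.6 to 143 TPM and a median of 20.1 TPM, against a median of 29.3 TPM in the other 4567 steady loci with 2 or more transcripts. The median share of the gaining transcript was 15.4% at 22 °C, 31.9% at 3 h and 51.5% at 12 h, and that of the losing transcript was 68.0%, 45.7% and 28.9% at the same times. All 3 libraries at 12 h lay above all 3 at 22 °C for the gaining transcript in 118 of the 121 loci, with a background of 23.5% of the 4688 steady loci, but this is nearly what the choice of the loci asked for. In 82 of the 121 loci the most abundant transcript at 12 h was another one than at 22 °C. Both transcripts passed 30 points in 70 loci, the gaining transcript alone in 26 and the losing transcript alone in 25. The annotation lists 2 transcripts for 31 of the loci, 3 for 33 and 4 or more for 57. The spread between libraries was wide. The SD of the gaining share was below 10 points in every group in 45 loci and above 20 points in at least 1 group in 21 loci.

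**Figure D1:**
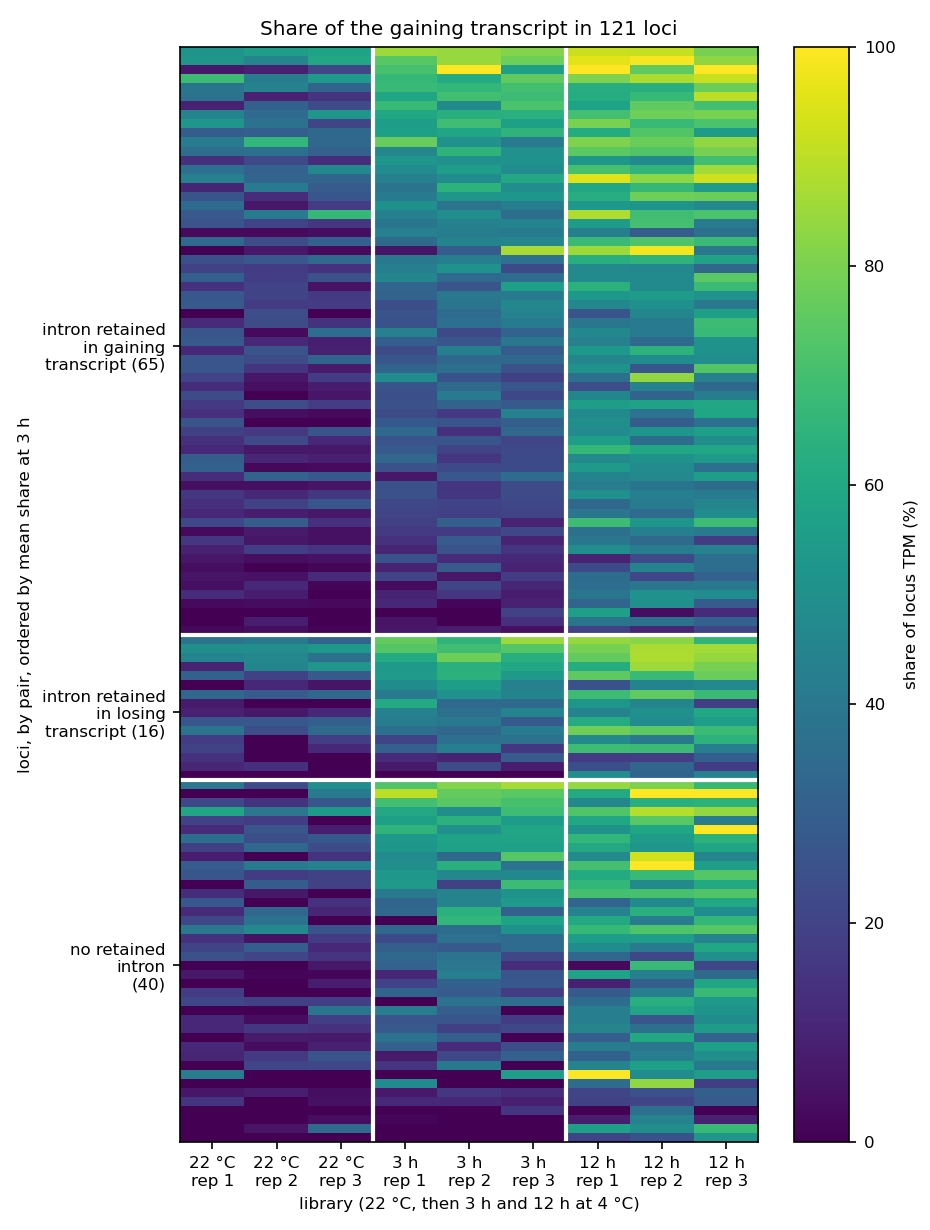
Share of the gaining transcript (percent of the locus TPM, colour scale) in each of the 9 libraries (columns, with 22 °C on the left and 12 h on the right) for the 121 loci (rows), in blocks of 65 loci with an intron retained in the gaining transcript, 16 with one retained in the losing transcript and 40 with neither, each ordered by the 3 h mean. The 12 h columns are brighter (higher shares) than the 22 °C columns by the choice of loci, while the 3 h columns, which did not enter that choice, run from values like those at 22 °C to values like those at 12 h.

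The feature that the gaining and losing transcripts differed by most often was a retained intron. In 65 of the 121 pairs (53.7%) the gaining transcript kept an intron that the losing transcript splices, in 16 (13.2%) the losing transcript kept it, and in 40 neither did. Among the other steady loci, taking the transcript that gained most and the one that lost most at 12 h, the gaining transcript kept the intron in 23.3% and the losing transcript in 18.5% of 4559 loci. For the 328 of these that moved by at least 20 points the values were 34.1% and 21.6%, and for the 672 that moved by at least 10 points without overlap between the libraries they were 41.1% and 22.6%. This comparison describes annotated transcript models, and the direction rests on the same shares that chose the loci, so no test is given. Among the other kinds of difference, start sites were more than 50 bases apart in 50 pairs (41.3%) and end sites in 28 (23.1%). Another donor site was found in 15 (12.4%), another acceptor site in 12 (9.92%) and a skipped or exchanged exon in 7 (5.79%). For the 2 most abundant transcripts of 4559 other steady loci, these features stood, in the same order, at 49.4%, 40.4%, 20.9%, 25.8% and 9.04%. None of them was thus more common in the 121 loci.

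**Figure D2:**
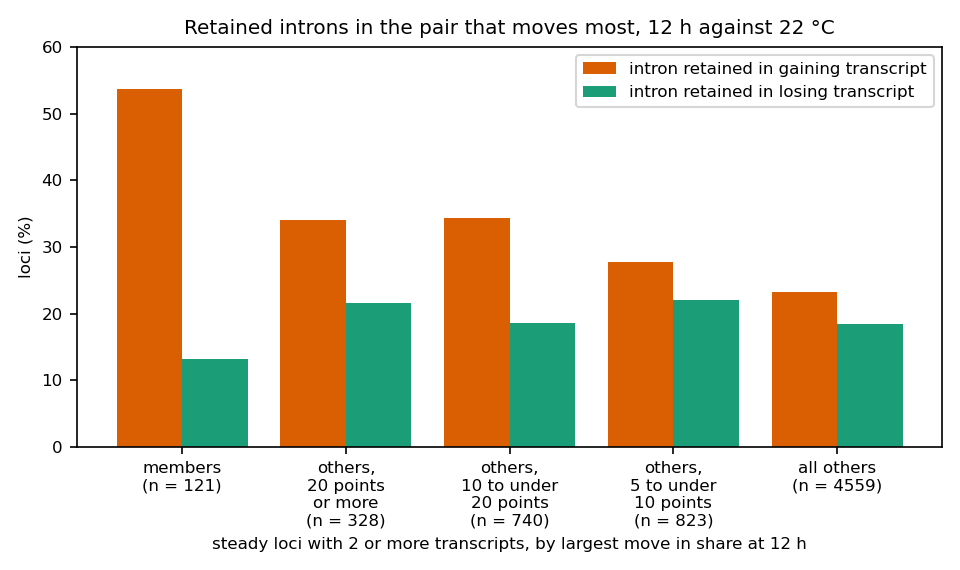
Percent of loci (vertical axis) in which an intron is retained in the gaining transcript (orange bars) or in the losing transcript (green bars), for the 121 loci and for the other steady loci grouped by the size of their move from 22 °C to 12 h in percentage points. The orange and green bars stand at 53.7% against 13.2% in the 121 loci and 34.1% against 21.6% in the other loci that moved by at least 20 points. Not drawn are the other loci that moved by at least 10 points without overlap, at 41.1% against 22.6%.

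The 71 introns retained in gaining transcripts had a median length of 103 bases (67 to 960). For the 487 other introns of the spliced transcripts, over the 81 loci with an intron retained in either form, the median was 101 bases. All 71 introns retained in gaining transcripts began with GT and ended with AG. Of these, 46 lay in coding sequence, 15 in the 5′ UTR and 10 in the 3′ UTR. Reading on in frame from the exon before it, 37 of the 46 coding introns met a stop codon inside the intron, 6 shifted the frame without a stop and 3 kept the frame. Among the 65 loci, the gaining transcript had the shorter coding sequence in 35, the longer one in 8 and the same one in 22. In the 16 loci of the opposite kind, all 10 coding introns of the losing transcript held an in-frame stop codon. In-frame stop codons were not counted in the other introns, so these counts have no background and are a description. Over the pairs of all the chosen loci, the annotated stop codon was also placed against the last exon junction. It lay more than 50 bases before that junction in 11 gaining transcripts (9.09%) and in 13 losing transcripts (10.7%). In pairs such as those of ARR4 and TLP9, the annotation gives the gaining transcript a later start codon and the same stop codon. The in-frame stop codon inside the retained intron then does not enter these counts. They thus do not compare how often gaining and losing transcripts carry an early stop codon in the frame of the spliced transcript. Decay of these RNAs was not tested.

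Sequences are given for retained introns of the response regulator ARR4, the tubby-like F-box protein TLP9, the stress co-regulator RCD1, the transcription factors MYB60, MYB16 and MYB59 and the sterol homeostasis protein ARV1, where a coding intron with an in-frame stop codon was retained in the gaining transcript, and for a pair of introns of AT1G22430 (a zinc-binding dehydrogenase family locus), retained in its losing transcript. Each is shown 5′ to 3′ on the strand of the gene, from RefSeq (TAIR10.1), with the intron in capitals and 15 coding bases of the exon on each side in lower case. The first in-frame stop codon, counted from 1 at the first intron base, is TAG at base 46 in ARR4 (chr1:3443155-3443266, minus strand), TGA at base 16 in TLP9 (chr3:1936660-1936924, plus), TAG at base 7 in RCD1 (chr1:11615725-11615846, plus), TAA at base 2 in MYB60 (chr1:2819844-2819984, minus), TAA at base 47 in MYB16 (chr5:4975215-4975326, plus), TGA at base 60 in MYB59 (chr5:24083104-24083212, minus) and TAA at base 67 in ARV1 (chr1:7218-7398, minus). The frame is that of the spliced transcript. In ARV1, RCD1 and AT1G22430 the annotation keeps the start codon and ends the coding sequence earlier in the intron-retaining form, and in ARR4, TLP9, MYB60, MYB16 and MYB59 it keeps the stop codon and starts the coding sequence at another, later start codon. In AT1G22430 it is TGA at base 85 of one intron (chr1:7920878-7921047, plus) and TAA at base 52 of the other (chr1:7921114-7921239, plus).
ARR4 retained intron: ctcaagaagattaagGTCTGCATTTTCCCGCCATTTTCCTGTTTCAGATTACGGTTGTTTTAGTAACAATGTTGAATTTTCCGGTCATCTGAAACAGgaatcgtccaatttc
TLP9 retained intron: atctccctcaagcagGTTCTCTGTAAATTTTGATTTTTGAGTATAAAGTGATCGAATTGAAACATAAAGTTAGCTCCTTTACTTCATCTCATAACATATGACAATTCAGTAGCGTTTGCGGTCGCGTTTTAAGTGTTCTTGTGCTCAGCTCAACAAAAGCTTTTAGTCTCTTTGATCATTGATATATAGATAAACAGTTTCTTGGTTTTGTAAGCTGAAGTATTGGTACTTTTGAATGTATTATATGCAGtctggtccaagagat
RCD1 retained intron: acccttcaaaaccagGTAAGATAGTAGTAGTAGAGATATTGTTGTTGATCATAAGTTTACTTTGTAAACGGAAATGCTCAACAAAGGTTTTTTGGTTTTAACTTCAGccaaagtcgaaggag
MYB60 retained intron: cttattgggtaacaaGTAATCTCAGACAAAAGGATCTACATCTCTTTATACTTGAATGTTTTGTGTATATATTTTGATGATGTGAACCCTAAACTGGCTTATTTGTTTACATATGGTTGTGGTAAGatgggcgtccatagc
MYB16 retained intron: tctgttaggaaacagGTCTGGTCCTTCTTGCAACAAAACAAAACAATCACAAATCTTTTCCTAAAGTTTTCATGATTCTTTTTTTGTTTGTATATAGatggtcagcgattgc
MYB59 retained intron: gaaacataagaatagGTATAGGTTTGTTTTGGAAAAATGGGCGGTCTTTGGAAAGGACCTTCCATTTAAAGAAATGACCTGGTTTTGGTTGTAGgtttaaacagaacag
ARV1 retained intron: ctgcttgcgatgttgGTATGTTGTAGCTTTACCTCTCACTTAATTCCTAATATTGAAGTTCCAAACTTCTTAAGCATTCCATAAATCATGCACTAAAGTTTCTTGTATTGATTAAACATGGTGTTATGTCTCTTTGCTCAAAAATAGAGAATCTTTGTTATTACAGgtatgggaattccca
AT1G22430 retained intron nearer the start: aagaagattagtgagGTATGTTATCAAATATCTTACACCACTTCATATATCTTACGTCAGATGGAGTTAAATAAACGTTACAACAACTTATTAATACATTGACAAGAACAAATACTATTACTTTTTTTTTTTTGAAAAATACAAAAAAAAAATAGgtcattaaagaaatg
AT1G22430 retained intron nearer the end: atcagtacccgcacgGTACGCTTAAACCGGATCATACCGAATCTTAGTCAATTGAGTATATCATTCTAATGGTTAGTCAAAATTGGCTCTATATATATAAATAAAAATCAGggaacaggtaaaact

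ARR4, a type-A response regulator that dampens cytokinin signalling, had a gaining transcript that was scarce at 22 °C and abundant at both times in the cold. Its intron-retaining transcript ARR4.2 held 2.37%, 2.65% and 3.57% of the locus at 22 °C, 43.6%, 42.4% and 41.3% at 3 h, and 43.3%, 29.0% and 37.1% at 12 h. All 6 cold libraries lay above all 3 libraries at 22 °C, and the coding sequence of this transcript is 552 bases long, against 780 in the spliced transcript ARR4.1. In TPM, the spliced ARR4.1 was at 66.8, 73.2 and 73.2 at 22 °C, 62.3, 76.9 and 75.4 at 3 h, and 32.1, 27.2 and 25.9 at 12 h. ARR4.2 was at 1.73, 2.01 and 2.71 TPM at 22 °C, 58.3, 59.6 and 55.7 TPM at 3 h, and 24.6, 14.8 and 17.1 TPM at 12 h. The spliced form thus overlapped between 3 h and 22 °C, and the added ARR4 RNA at 3 h was mostly in the intron-retaining form, as the stacked levels show.

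**Figure D3:**
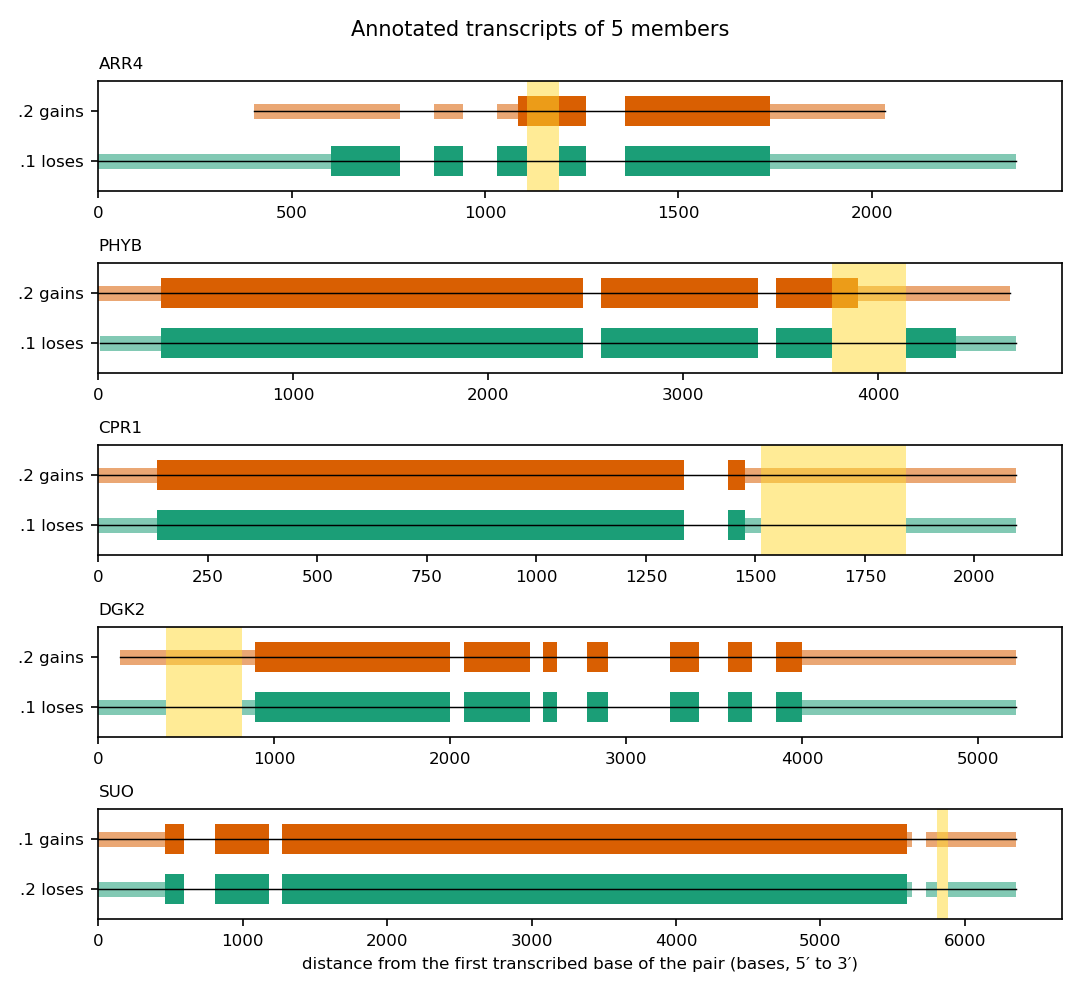
Transcript models of ARR4, PHYB, CPR1, DGK2 and SUO, with the gaining transcript above the losing one, drawn against the distance in bases from the first transcribed base of the locus (horizontal axis). Thick bars are coding exons, thin bars are untranslated exons, lines are introns and the yellow band marks the intron retained in the gaining transcript, which is 82 bases long and coding in ARR4, 376 bases and coding in PHYB, 330 bases in the 3′ UTR in CPR1, 428 bases in the 5′ UTR in DGK2 and 80 bases in the 3′ UTR in SUO.

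The 3 h libraries played no part in the choice of the loci, so they show how early the change was present, although the libraries they are compared with did enter that choice. The share of the gaining transcript at 3 h was nearer to that at 12 h in 57 loci and nearer to that at 22 °C in 64. All 3 libraries at 3 h lay above all 3 at 22 °C in 63 of the 121 loci, against a background of 14.8% of the 4688 steady loci with 2 or more transcripts, and all 3 lay below in none. The 3 libraries at 12 h lay above all 3 at 3 h in 57 loci, with the same background of 14.8%. The shares at 22 °C and 12 h helped to choose the loci, so these counts are a description and are not read against the backgrounds. In 5 loci the mean at 3 h was below that at 22 °C.

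Transcript usage was tested over 6739 loci with edgeR's test for differential splicing (a locus passed with a Benjamini-Hochberg adjusted p under 0.05 and 1 transcript whose mean share shifted by 10 points or more). At 3 h against 22 °C, 11 of the 121 loci passed, with a background of 1.31% of the loci tested. The 22 °C shares helped to choose the loci, and the background also holds loci that are not steady. The count is thus a description and is not read against this background. The 11 were ARR4, AT1G10890, AT1G63830, RLM3, CAX1, FPA, ORP2A, WRKY11, APK1A, AT5G63370 and DGK2, of which AT1G63830, AT1G10890, WRKY11 and APK1A were chosen after their values were seen. The calls for ARR4 (adjusted p = 1.31e-05, edgeR), AT1G10890 (3.83e-04), AT1G63830 (8.29e-05) and RLM3 (1.96e-07) held with any 1 of the 9 libraries left out, while those of the other 7 were lost in 6 or more of the 9 cases. ARR4 and AT1G10890 were also called under each other alternative tried, whereas the calls of RLM3 and AT1G63830 were lost with limma's test and with a minimum of 10 reads per library (adjusted p of up to 0.416 and 0.444). The intron was retained in the gaining transcript in 4 of the 11 and in the losing transcript in another 4. In the contrast that chose the loci, 12 h against 22 °C, the same fit called 35 of the 121 and 4.01% of all loci tested, and nothing is read from this count.

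AT1G10890, annotated as related to an arginine and glutamate-rich protein, went the other way from ARR4 with respect to its intron. Its losing transcript AT1G10890.2 keeps an intron of 868 bases that its gaining transcript AT1G10890.1 splices. AT1G10890.2 held 55.7%, 53.6% and 55.4% of the locus at 22 °C, 11.3%, 14.9% and 11.1% at 3 h, and 23.2%, 27.1% and 7.42% at 12 h. AT1G10890.1 held 8.99%, 6.30% and 11.0% at 22 °C, 44.0%, 36.9% and 44.9% at 3 h, and 44.7%, 50.3% and 59.5% at 12 h. As in ARR4, the cold libraries were apart from those at 22 °C already at 3 h.

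CAX1, which moves calcium into the vacuole in exchange for protons, had the highest level of the 121 loci. It was listed at 174, 144 and 168 TPM at 22 °C, 165, 173 and 174 TPM at 3 h, and 102, 93.0 and 95.8 TPM at 12 h. The losing transcript CAX1.3, which keeps a coding intron of 720 bases, held 48.3%, 46.8% and 46.1% at 22 °C, 24.6%, 29.8% and 24.8% at 3 h, and 20.2%, 12.8% and 13.5% at 12 h, and the groups do not overlap. The 3 h call (adjusted p = 0.0232, edgeR) was lost without any 1 of the 6 libraries of the comparison.

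FPA, an RNA-binding protein of the autonomous flowering pathway that acts on the choice of mRNA 3′ ends, also lost an intron-retaining form. FPA.4, with an intron of 798 bases kept in the 3′ UTR, held 44.7%, 51.0% and 41.8% at 22 °C, 31.1%, 29.1% and 31.6% at 3 h, and 18.6%, 27.0% and 16.2% at 12 h. The gaining transcript FPA.2, which has the same coding sequence and ends 293 bases further downstream, held 31.2%, 19.9% and 28.3% at 22 °C, 55.1%, 64.1% and 53.9% at 3 h, and 75.0%, 67.8% and 77.2% at 12 h. In TPM, FPA.4 overlapped between 12 h (5.11, 7.06 and 4.40) and 22 °C (6.30, 6.94 and 6.53), and FPA.2 did not (20.6, 17.7 and 20.9 at 12 h against 4.40, 2.71 and 4.42 at 22 °C).

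**Figure D4:**
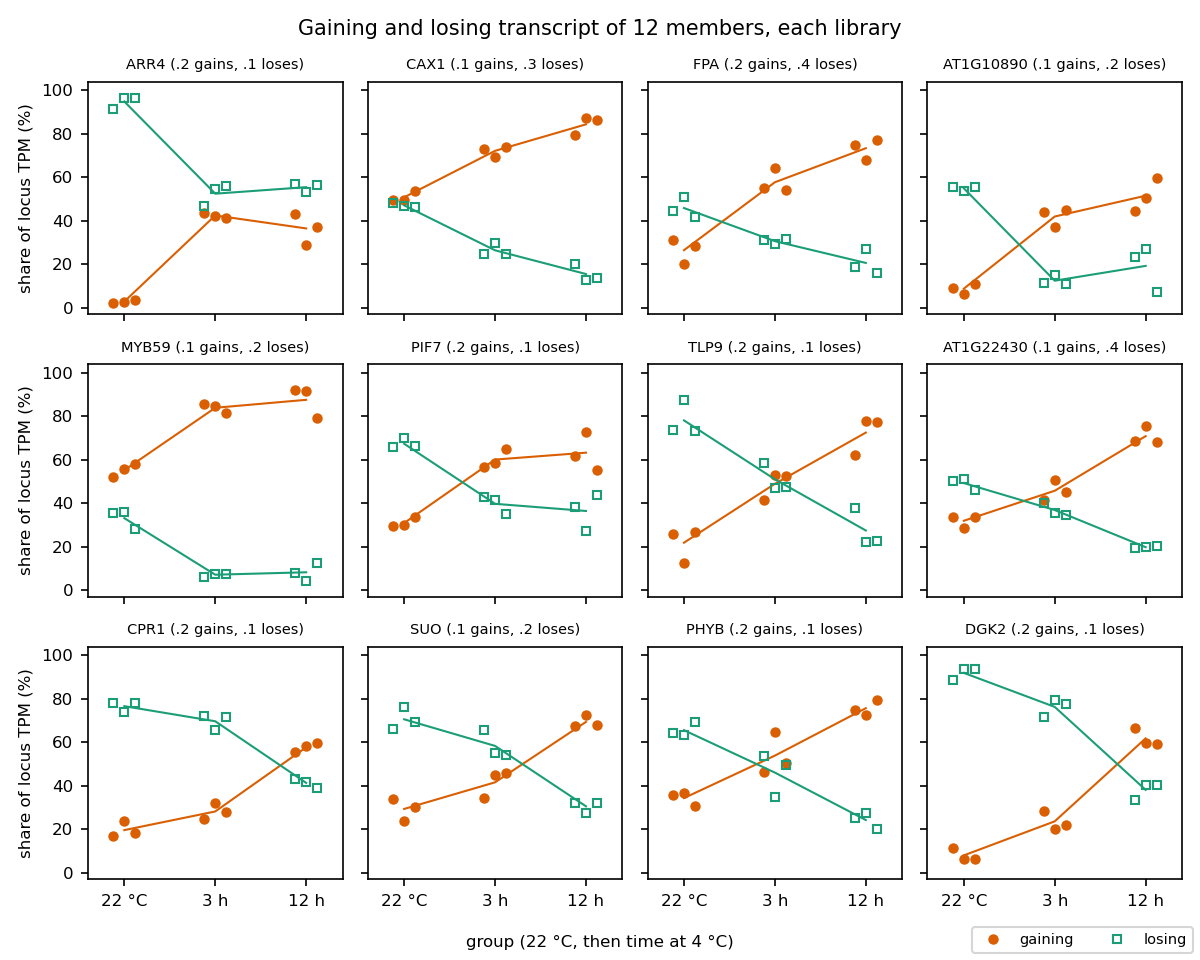
Share of the gaining (filled orange) and losing (open green) transcript in percent of the locus TPM (vertical axis) in each library of the 3 groups (horizontal axis) for ARR4, CAX1, FPA, AT1G10890, MYB59, PIF7, TLP9, AT1G22430, CPR1, SUO, PHYB and DGK2, with lines through the group means. ARR4, AT1G10890 and MYB59 made most of their change by 3 h, whereas CPR1 and DGK2 made most of theirs between 3 h and 12 h.

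Between 12 h and 3 h, 12 of the 121 loci passed the test of transcript usage. The background was 1.57% of the 6739 loci tested, but the 12 h shares helped to choose the loci, so the count is a description and is not read against this background. The calls were AT1G63830, SUO, DDB1A, CPR1, RLM3, AT5G06440, RCD1, HKL1, ALDH3I1, AT1G13570, DGK2 and PHYB, and all but CPR1, RLM3, RCD1 and DGK2 were chosen after their values were seen. AT1G63830, SUO, DDB1A, CPR1 and RLM3 were called with any 1 library left out. HKL1 (a hexokinase-like protein), ALDH3I1 (an aldehyde dehydrogenase) and RCD1 were called in 6 of 9 cases, AT1G13570 in 5, DGK2 in 2 and PHYB in 1. Over all the alternatives the adjusted p reached 0.187 for PHYB, 0.213 for DGK2, 0.155 for DDB1A (with limma's test), 0.994 for ALDH3I1 and 1.000 for AT5G06440. ALDH3I1 was called in 3 of the 7 alternatives other than leaving out a library.

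CPR1, an F-box protein that keeps intracellular immune receptors at a low level, kept its coding sequence of 1242 bases in both forms. CPR1.2, with an intron of 330 bases retained in the 3′ UTR, held 17.0%, 23.8% and 18.2% at 22 °C, 24.7%, 32.0% and 28.0% at 3 h, and 55.6%, 58.1% and 59.5% at 12 h. The test of usage at 12 h against 3 h passed (adjusted p = 0.00647, edgeR), also under each of the alternatives tried. The shares at 12 h helped to choose the locus, so the p-value does not by itself show a difference. CPR1.2 stood at 64.1, 65.5 and 57.1 TPM at 12 h, against 13.4, 19.0 and 15.9 TPM at 3 h, while the spliced CPR1.1 stood at 49.8, 47.0 and 37.5 TPM at 12 h, against 39.1, 39.1 and 40.7 TPM at 3 h. The 2 groups overlap for the spliced form and not for the intron-retaining form.

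SUO, a nuclear protein needed for translational repression by miRNAs, exchanged its forms at a near constant level. The locus was at 18.0, 19.5 and 19.9 TPM at 22 °C, 22.4, 23.0 and 21.0 TPM at 3 h, and 19.8, 18.5 and 18.9 TPM at 12 h. SUO.1, which keeps an intron of 80 bases in the 3′ UTR, held 34.0%, 23.7% and 30.5% at 22 °C, 34.4%, 44.8% and 45.7% at 3 h, and 67.7%, 72.5% and 68.0% at 12 h. The test of usage at 12 h against 3 h gave an adjusted p of 0.00514 (edgeR), and of 0.0521 with the replicate number as a block.

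**Figure D5:**
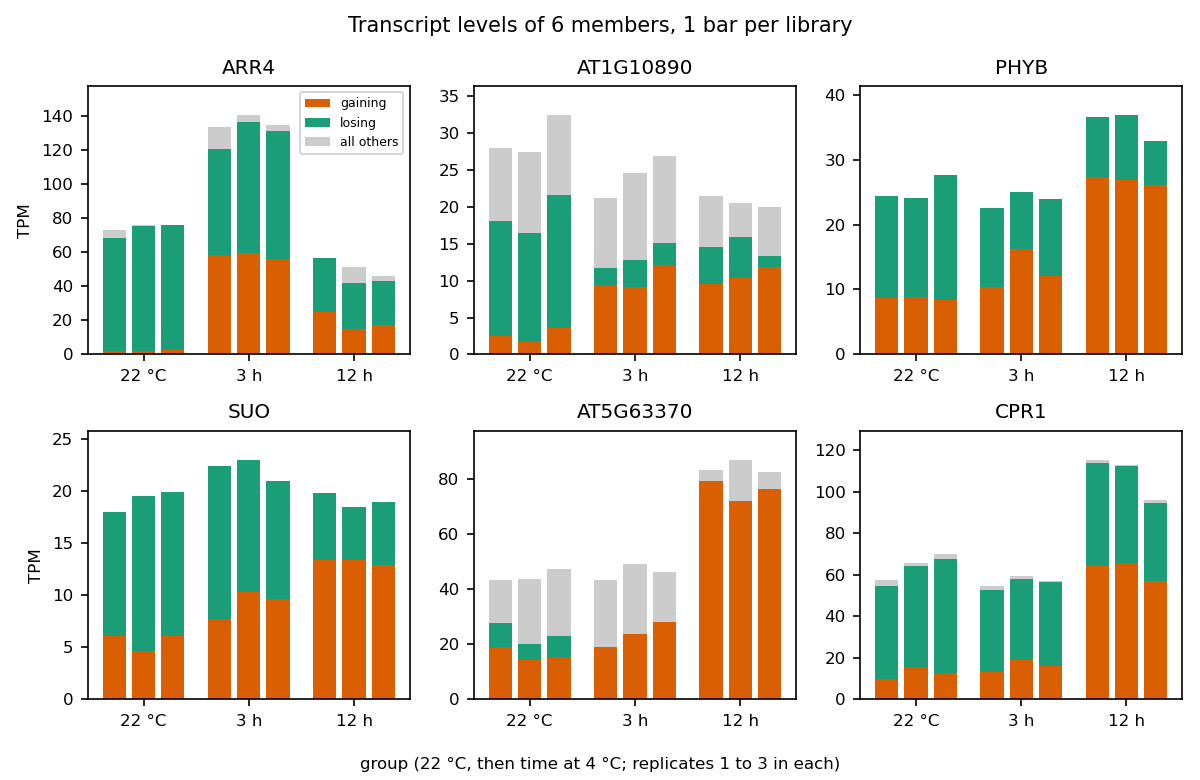
Level in TPM (vertical axis) of the gaining transcript, the losing transcript and all other transcripts of ARR4, AT1G10890, PHYB, SUO, AT5G63370 and CPR1, stacked for each of the 9 libraries. In ARR4 the bars are tallest at 3 h, at 134 to 141 TPM, through the gaining transcript, in SUO their height stays at 18.0 to 23.0 TPM while the parts change, and in CPR1 the losing part stays at 37.5 to 54.6 TPM.

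The light-signalling loci PHYB (the red light receptor phytochrome B) and PIF7 (a bHLH factor that acts with phytochromes in shade and warmth) were both among the 121, and PIF7 was chosen after its values were seen. PHYB.2 keeps the last intron, of 376 bases, meets a TAG at base 128 of it and codes for 3393 bases, against 3519 in PHYB.1. It held 35.9%, 36.6% and 30.7% at 22 °C, 46.4%, 64.9% and 50.4% at 3 h, and 74.8%, 72.7% and 79.6% at 12 h. The test of 12 h against 3 h gave an adjusted p of 0.0318 (edgeR). PIF7.2, with a retained intron of 144 bases and 837 coding bases against 1101 in PIF7.1, held 29.5%, 29.8% and 33.5% at 22 °C, 56.6%, 58.7% and 65% at 3 h, and 61.6%, 72.9% and 55.3% at 12 h. Both loci had separate groups at 22 °C and in the cold, and for PIF7 the groups at 3 h and 12 h overlap.

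Forms with a shorter coding sequence were gained by the transcription factors MYB60 (active in guard cells), MYB16 (active in the epidermis and cuticle) and MYB59 and by TLP9, and the 3 MYB genes were chosen after their values were seen. MYB59.1, with 513 coding bases against 645, held 51.9%, 55.9% and 57.9% at 22 °C, 85.5%, 84.6% and 81.6% at 3 h, and 91.9%, 91.4% and 79.4% at 12 h. MYB16.3, with 744 against 981, held 12.7%, 4.20% and 7.46% at 22 °C, 26.1%, 34.4% and 26.7% at 3 h, and 23.7%, 44.2% and 33.5% at 12 h. In both the libraries at 3 h were already clear of those at 22 °C. MYB60.3, with 594 against 843, held 19.3%, 17.7% and 14.1% at 22 °C, 43.1%, 51.0% and 22.3% at 3 h, and 47.0%, 46.2% and 33.0% at 12 h. TLP9.2, with 867 against 1143, held 26.1%, 12.7% and 26.9% at 22 °C, 41.5%, 52.9% and 52.5% at 3 h, and 62.2%, 77.9% and 77.4% at 12 h, with no overlap between any 2 of the groups. WRKY11, a regulator of basal immunity, differed by an acceptor site (978 coding bases in the gaining and 975 in the losing form). WRKY11.1 held 36.2%, 23.9% and 27.6% at 22 °C, 53.4%, 57.8% and 58.3% at 3 h, and 66.4%, 55.1% and 64.7% at 12 h.

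SPT1, ORP1C, ORP2A, DGK2, LPAT5 and ARV1 act in lipid metabolism or transport and are put together here after their values were seen. SPT1 encodes a subunit of serine palmitoyltransferase, the first enzyme of sphingolipid synthesis, and moved most, by 79.7 points. SPT1.2, which keeps an intron of 147 bases in the 3′ UTR, held 6.33%, 8.81% and 21.4% at 22 °C, 70.8%, 100% and 56.7% at 3 h, and 100%, 75.6% and 100% at 12 h. The ORP1C form with an intron of 87 bases in the 3′ UTR held 0%, 6.64% and 2.51% at 22 °C, 5.30%, 29.1% and 87.4% at 3 h, and 85.6%, 98.1% and 39.6% at 12 h, so the 3 h libraries covered nearly the whole range. ORP1C and ORP2A belong to the oxysterol-binding protein relatives, which carry lipids between membranes. ORP2A.5 was at 13.3%, 22.2% and 12.6% at 22 °C, 52.7%, 50.5% and 50.8% at 3 h, and 53.0%, 48.0% and 69.8% at 12 h. In DGK2, a diacylglycerol kinase that makes phosphatidic acid, the form with an intron of 428 bases in the 5′ UTR held 11.3%, 6.37% and 6.48% at 22 °C, 28.5%, 20.4% and 22.2% at 3 h, and 66.5%, 59.6% and 59.4% at 12 h. All 3 groups of DGK2 were apart. LPAT5, a lysophosphatidyl acyltransferase, gained a form with an intron of 195 bases in the 5′ UTR, at 9.19%, 31.1% and 23.4% at 22 °C, 67.2%, 47.8% and 71.6% at 3 h, and 58.0%, 75.6% and 70.3% at 12 h. ARV1.2, whose retained intron is printed above, held 12.8%, 7.92% and 0% at 22 °C, 9.96%, 15.7% and 8.01% at 3 h, and 39.0%, 50.6% and 48.6% at 12 h, so that its libraries at 3 h and 22 °C overlap and those at 12 h are apart.

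RLM3, a TIR-domain protein of immunity to fungi, has 19 annotated transcripts, and several of them moved. RLM3.10 held 18.8%, 33.6% and 22.9% at 22 °C, 53.1%, 57.2% and 56.4% at 3 h, and 60.5%, 52.4% and 59.3% at 12 h. RLM3.17 held 30.6%, 11.0% and 23.9% at 22 °C, was listed at 0 in all 3 libraries at 3 h, and held 6.15%, 16.9% and 4.06% at 12 h. RLM3.18 held 32.5%, 23.8% and 28.9% at 22 °C, 36.2%, 35.2% and 31.9% at 3 h, and 17.5%, 16.8% and 14.3% at 12 h. The usage of RLM3 was called at 3 h against 22 °C and at 12 h against 3 h (adjusted p = 9.14e-06, edgeR), although not in either comparison when at least 10 reads per library were asked of each transcript or with limma's test. Some pairs among its transcripts can be told apart by few reads only, with 10 words of 31 bases found in RLM3.10 and not in RLM3.17.

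AT1G31540, a TIR-NBS-LRR resistance protein locus, and RCD1, a protein that binds many transcription factors and whose loss makes plants sensitive to ozone, also belong with the stress and immunity genes. AT1G31540.1 held 21.2%, 14.8% and 26.7% at 22 °C, 70.3%, 74.4% and 70.8% at 3 h, and 46.1%, 62.9% and 64.6% at 12 h. Its losing transcript has no word of 31 bases that the gaining transcript lacks. RCD1 was at 98.9, 104 and 113 TPM at 22 °C, 100, 89.5 and 94.7 TPM at 3 h, and 106, 119 and 109 TPM at 12 h. RCD1.2 held 57.2%, 55.6% and 55.3% at 22 °C, 47.8%, 47.3% and 51.3% at 3 h, and 21.8%, 30.6% and 17.7% at 12 h. The intron-retaining RCD1.3 held 2.30%, 3.72% and 1.14% at 22 °C, 6.05%, 7.57% and 4.28% at 3 h, and 19.2%, 10.7% and 20.8% at 12 h. All 3 groups are apart for both RCD1 transcripts. The test of usage at 12 h against 3 h gave an adjusted p of 0.0109 (edgeR), from shares at 12 h that helped to choose the locus. AT1G11280, an S-locus lectin receptor kinase locus, had its gaining transcript at 37.5%, 9.04% and 14.9% at 22 °C, 59.2%, 69.9% and 68.5% at 3 h, and 61.8%, 67.1% and 90.2% at 12 h.

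Loci of primary metabolism and organelles included THIC, the thiamine synthesis enzyme whose mRNA carries a riboswitch in the 3′ UTR. THIC.1, which keeps an intron of 205 bases in the 3′ UTR and ends 819 bases further downstream, held 39.0%, 44.9% and 32.4% at 22 °C, 67.9%, 66.1% and 69.7% at 3 h, and 62.2%, 62.6% and 77.5% at 12 h, and the losing transcript THIC.3 held 44.5%, 42.6% and 52.7% at 22 °C, 17.5%, 0% and 1.05% at 3 h, and 1.95%, 2.05% and 0% at 12 h. For ATTPPA, a trehalose-6-phosphate phosphatase, the forms differ by an acceptor site, and the gaining one also ends 62 bases further downstream. ATTPPA.1 held 13.2%, 6.49% and 0% at 22 °C, 40.5%, 44.6% and 51.0% at 3 h, and 70.6%, 71.0% and 72.8% at 12 h. The 3 groups of ATTPPA do not overlap. AT1G22430 lost a form with a pair of retained introns, and its spliced transcript AT1G22430.1, with 1167 coding bases against 879, held 33.7%, 28.7% and 33.5% at 22 °C, 41.6%, 50.7% and 45.0% at 3 h, and 68.7%, 75.6% and 68.3% at 12 h. CKS, which activates the sugar KDO, moved by 73.2 points, and CKS.2 was listed at 0%, 0% and 41.5% at 22 °C, 90.1%, 76.1% and 74.4% at 3 h, and 61.1%, 100% and 100% at 12 h. The third library at 22 °C thus stood apart from the other two. KIS.3, of the tubulin folding cofactor A locus, held 12.4%, 26.2% and 7.65% at 22 °C, 65.1%, 50.7% and 59.3% at 3 h, and 51.5%, 59.1% and 100% at 12 h. In Hsp89.1, a mitochondrial HSP90, the gaining transcript held 7.77%, 0% and 14.8% at 22 °C, 48.3%, 34.5% and 73.7% at 3 h, and 47.9%, 92.6% and 45.7% at 12 h. CKS and KIS had an SD above 20 points in at least 1 group, as did Hsp89.1, and this held for 9 of the 20 largest moves and not for the other 11.

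AT5G63370, which the reference also lists as the cyclin-dependent kinase CDKG1, was at 43.4, 43.9 and 47.1 TPM at 22 °C, 43.4, 49.0 and 46.1 TPM at 3 h, and 83.3, 86.9 and 82.3 TPM at 12 h. Its transcript AT5G63370.1 held 43.7%, 32.5% and 32.5% at 22 °C, 43.5%, 48.4% and 60.5% at 3 h, and 95.2%, 82.9% and 92.6% at 12 h. The losing transcript AT5G63370.9 held 19.9%, 13.5% and 16.3% at 22 °C and was listed at 0 in all 6 cold libraries. At 12 h this locus thus gave nearly a single transcript. UNE6, a LUC7-related protein of the U1 snRNP family, was less regular, with its gaining transcript at 0%, 0% and 6.41% at 22 °C, 31.4%, 39.6% and 13.2% at 3 h, and 2.57%, 67.6% and 21.1% at 12 h. Its losing transcript held 87.4%, 88.1% and 87.6% at 22 °C, 41.2%, 51.8% and 68.8% at 3 h, and 75.8%, 0% and 37.9% at 12 h.

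The other loci named for a large move or a high level were AT3G16940 (a calmodulin-binding transcription activator, 58.7 points), AT1G50380 (a prolyl oligopeptidase family protein, 53.8), AT1G35220 (53.6), AT5G17700 (a MATE efflux protein, 52.7), AT1G21780 (a BTB/POZ protein, 49.5), AT5G57060 (48.8), AT3G13430 (a RING/U-box protein, 48.7) and AT3G02900 (37.3). The points are the larger of the moves of the gaining and the losing transcript, and in AT3G16940 and AT5G17700 they belong to the losing one. The shares that follow are those of gaining transcripts. AT3G16940.2 held 25.6%, 20% and 16.0% at 22 °C, 38.8%, 44.0% and 45.3% at 3 h, and 55.1%, 70.3% and 41.1% at 12 h. AT5G17700.2, with an intron of 308 bases in the 5′ UTR, held 52.5%, 37.2% and 20.8% at 22 °C, 56.1%, 69.4% and 56.7% at 3 h, and 79.7%, 67.9% and 71.7% at 12 h. In contrast, AT1G50380.1 was listed at 42.3%, 0% and 0% at 22 °C, 0%, 0% and 55.6% at 3 h, and 100%, 48.4% and 55.5% at 12 h. AT1G50380.1 has no word of 31 bases that its partner lacks. The gaining transcript of AT1G35220 was likewise at 0% in 5 of the 6 libraries at 22 °C and 3 h and at 35.5%, 83.7% and 18.4% at 12 h.

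In DDB1A, HKL1 and AT1G63830, called above, a transcript was listed at 0 throughout a group. The gaining transcript of DDB1A, a subunit of CUL4 ubiquitin ligases, was listed at 0 in all 6 libraries at 22 °C and 3 h and held 20.3%, 25.3% and 52.7% at 12 h. HKL1.1 was listed at 0 in the same 6 libraries and held 49.3%, 32.2% and 44.5% at 12 h. In AT1G63830, a PLAC8 family locus, AT1G63830.1 held 27.7%, 20.5% and 23.2% at 22 °C, was listed at 0 in all 3 libraries at 3 h, and held 16.8%, 17.3% and 32.5% at 12 h, while the gaining AT1G63830.2 held 11.0%, 3.24% and 8.69% at 22 °C, 30.7%, 12.3% and 23.7% at 3 h, and 42.5%, 39.1% and 56.5% at 12 h. A listed 0 is an estimate from reads shared between similar transcripts and does not show that a transcript was absent. The gaining transcript was listed at 0 in at least 1 library in 36 of the 121 loci.

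Steady here means within 0.5 to 2 times, and part of the loci still changed in level. The mean at 12 h was 0.515 to 1.97 times that at 22 °C with a median of 0.975, against 0.890 in the other steady loci with 2 or more transcripts. At 3 h against 22 °C, edgeR's quasi-likelihood test (adjusted p under 0.05 over 20460 loci and a log2 fold change of 0.5 or more in size) called 6 of the 121 higher and 1 lower, with backgrounds of 7.05% and 3.47%. ARR4 rose by 0.93 ± 0.09 on the log2 scale (SE), AT1G31540 by 1.31 ± 0.12, WRKY11 by 0.79 ± 0.08 and AT1G63830 by 0.74 ± 0.10, and BGLU6, a beta-glucosidase named after its values were seen, fell by 0.58 ± 0.12. AT2G26190 and AT5G57340, also named after their values were seen, rose by 0.56 ± 0.09 and 0.65 ± 0.15. At 12 h against 3 h, 25 were higher and 6 lower, with backgrounds of 11.0% and 14.8%. THIC rose by 1.17 ± 0.09, CPR1 and AT5G63370 by 1.11 ± 0.08 each, ATTPPA by 0.90 ± 0.10, DGK2 by 0.86 ± 0.08, PHYB by 0.72 ± 0.08 and FPA by 0.69 ± 0.09, while ARR4 fell by 1.27 ± 0.09, CAX1 by 0.61 ± 0.09 and TLP9 by 0.66 ± 0.12. The choice of loci set a minimum level in every group and bounded 12 h against 22 °C, and the background of 20460 loci has no such limits. The counts of higher and lower loci are thus not read against their backgrounds. All folds given here are on the scale of TMM-scaled counts. With TPM in place of TMM scaling, the median log2 fold change of all loci shifted by -0.22 at 12 h against 22 °C and by -0.16 at 12 h against 3 h.

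Genes of the splicing machinery and of the clock were looked at as related groups, from lists chosen with earlier results of these data known. Few of them could have been chosen: steady with 2 or more transcripts were 9 of 20 SR protein loci, 10 of 17 other splicing factor loci, 9 of 25 clock loci and 2 of 4 nonsense-mediated decay loci. None of these was among the 121, where the background of 2.58% also amounts to less than 1 locus. In the test of usage at 3 h against 22 °C, which called 1.31% of all loci, RS40 was called among 14 SR protein loci tested, PTB1 among 12 other splicing factors, CCA1, PRR9 and RVE1 among 13 clock loci, and none of 2 decay loci. At 12 h against 3 h, with 1.57% of all loci called, the calls were LHY and JMJD5, both of the clock list. At 12 h against 22 °C, with 4.01% called, they were CCA1, LHY, PRR3, PRR9, LUX and JMJD5 of the clock and GRP8, PTB1 and U2AF65A of the other splicing factors. The median of the largest share move between 12 h and 22 °C was 6.88 points in the SR proteins, 6.48 in the other splicing factors, 12.0 in the clock loci and 3.92 in the decay loci, against 3.61 in all 4688 steady loci with 2 or more transcripts.

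The 30-point minimum passes through a continuous range. Just inside it were CYP71A27, AT1G77800 and TTA2 (by 0.005, 0.010 and 0.044 points) and AT5G66900 and MAP1B (30.2 each). Just outside were AT4G19520 (at -0.024 points from it), AT5G49990, AT1G69840 and RPP1 (29.8 each) and AT1G73760 (29.7).

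How far the choice itself enlarges the moves was seen by choosing loci on 2 libraries a group and reading the share in the pair left out. With replicate 1, 2 or 3 left out, 188, 175 and 174 loci were chosen, with median moves of 37.6, 36.8 and 36.4 points in the libraries that chose them. In the libraries left out the median moves were 21.8, 23.7 and 20.9 points, and 63, 65 and 65 of the loci still moved by at least 30 points. The direction was the same in 149, 142 and 134 of them. The loci thus moved less in libraries that had not chosen them. In most of the 121 loci the forms are also told apart by few reads: in 94 of the pairs (77.7%), at least 1 of the transcripts has under 100 words of 31 bases that the other lacks, against 70.8% of the other steady loci for their pairs of most abundant transcripts.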

How the data were processed

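Salmon 1.6.0 was run by the authors against ARAPORT11 transcripts, after filtering of rRNA reads (SortMeRNA 4.3.4), trimming (Trimmomatic 0.32) and quality control (FastQC 0.11.9). DESeq2 served for their gene tests. Libraries were strand-specific, and Salmon's options are not given in the sources used here. The deposited estimated counts are Salmon's expected reads per transcript, and 30.0% to 40.5% of them per library are not whole. The deposited TPM values are these counts divided by effective transcript length and scaled to a fixed total per library, per the file headers.

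Shares were computed from TPM. Estimated counts were rounded and fitted over the 9 libraries with edgeR 4.0.16 (limma 3.58.1, R 4.3.3), with filterByExpr and TMM scaling. Locus counts were tested with the quasi-likelihood test over 20460 loci. Transcript usage was tested with diffSpliceDGE on transcript counts, by Simes p per locus over 6739 loci. Adjustment was by Benjamini-Hochberg, and an SE is the size of the log2 fold change divided by the root of its F. Tables and figures used Python 3.11.15, pandas 2.3.3, numpy 2.4.6 and matplotlib 3.10.9. Both fits were tested on simulated data. Replicates were, by the study's methods, pools of seedlings from different plates, and p-values measure the spread between them. Replicate numbers did not pair libraries (r = -0.20 to 0.11 between residuals).

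Transcript models and sequences came from RefSeq (TAIR10.1), where 53045 of 53467 transcripts matched by name and length (99.2%). A retained intron is one that lies inside an exon of the other transcript.

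The loci, lists and alternatives were chosen with earlier results of these data known. The genes named are the 20 largest moves at 12 h, the 10 highest levels and the 5 largest moves at 3 h, 31 in all with overlaps. Other named loci were chosen after their values were seen. Alternatives were DESeq2 1.42.0 size factors, upper quartile scaling, other filters, limma's voom, counts from scaled TPM, a replicate block, the compared groups alone, other thresholds and each library left out.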

Additional observations from a re-analysis of the deposited data

Results flagged for a closer look

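For 12 of the 121 loci the test of transcript usage at 12 h against 3 h, which is the test of a difference between the changes at the 2 times, passed its threshold (edgeR's test for differential splicing, Benjamini-Hochberg adjustment over 6739 loci, 3 libraries a group). The adjusted p was 9.14e-06 for RLM3, 5.07e-05 for AT5G06440, 1.23e-04 for AT1G63830, 6.16e-04 for DDB1A, 0.00514 for SUO, 0.00647 for CPR1, 0.00911 for ALDH3I1, 0.0109 for RCD1, 0.0141 for AT1G13570, 0.0165 for HKL1, 0.0318 for PHYB and 0.0385 for DGK2. The shares at 12 h helped to choose the loci, so these p-values come from values used in the choice and do not by themselves show that the changes differed. PHYB was called in 1 and DGK2 in 2 of 9 fits with a library left out, and ALDH3I1 in 3 of 7 other alternatives. AT5G06440.3 held 10.3%, 40.8% and 28.7% at 22 °C, 38.5%, 64.5% and 48.9% at 3 h, and 59.6%, 66.7% and 55% at 12 h, with overlap between 3 h and 12 h, and its losing transcript was listed at 0 in all 3 libraries at 12 h. In AT1G13570, an F-box family locus, the gaining transcript was listed at 0%, 5.11% and 34.4% at 22 °C, at 0 in all 3 libraries at 3 h, and at 56.3%, 49.5% and 67.9% at 12 h. ALDH3I1.1 held 59.1%, 39.5% and 54.4% at 22 °C, 60.4%, 49.0% and 69.0% at 3 h, and 72.7%, 88.8% and 84.3% at 12 h. The first 2 groups overlap and the libraries at 12 h lie above both.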

How the results depend on the processing

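The number of loci that meet the rule depended on its limits. It was 220 with a level of at least 5 TPM and 45 with 20 TPM, 352 with a move of at least 20 points and 44 with 40, and 27 with at least 100 words of 31 bases particular to each transcript, and it ranged from 120 to 188 with libraries left out, against 121. Of the 121, the test of usage called 11 at 3 h against 22 °C, 12 at 12 h against 3 h and 35 at 12 h against 22 °C, the contrast that chose the loci. An adjusted p under 0.01 gave 4, 7 and 20, limma's voom 34, 41 and 79, and at least 10 reads in every library, which left 77 of the 121 to be tested, gave 22 of 77 at 3 h and 56 of 77 at 12 h against 22 °C. Without a filter on low counts 7 were called at 3 h. With each library left out in turn the counts ranged over 4 to 14, 6 to 13 and 21 to 32. The lowest counts were those without the third library at 3 h (4 and 6) and without the third library at 22 °C (21). Replicate numbers did not pair the libraries, and the fit with a replicate block gave 4 and 6 calls at 3 h against 22 °C and at 12 h against 3 h. Over all loci tested the counts were 88, 106 and 270, against 302, 337 and 627 with voom, 40, 58 and 121 with an adjusted p under 0.01 and 44, 68 and 171 with the block. With at least 10 reads in every library, 118 of 2684 loci were called at 3 h and 392 at 12 h against 22 °C. Without the filter, 68 of 9531 were called at 3 h. For the level of the locus, the calls were 7, 31 and 34 in the same 3 comparisons, 23, 58 and 72 without a fold minimum, and 1, 5 and 11 with a log2 fold change of at least 1. Over all 20460 loci these counts were 2152, 5271 and 6782, then 3429, 8121 and 10120, then 965, 2348 and 3492. Share moves of named genes were compared under other settings in 434 cases. A move was kept if it shifted by no more than the larger SD of the compared groups. With shares of estimated reads, 59 of 62 moves were kept. None of the 12 h moves, or of the 3 h moves in loci called at 3 h, changed direction there. The other cases left out 1 library. That cannot shift a mean of 3 libraries by more than the SD, so nothing is read from them. The cause of these differences was not tested. Precision is limited by the 3 libraries a group and by 96 to 2895 estimated reads per locus in the shallowest library.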
